A study of Mus musculus with 12 samples.

Results

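The genes that encode integrins, collagens and laminins were examined for the promoter mark H3K4me3 and for the transcription factor cJun in Min6, a β cell line derived from a mouse insulinoma. Members were the protein-coding genes of the GENCODE vM21 annotation (GRCm38) whose symbols begin with Itga or Itgb, have the form of a collagen chain (Col4a1) or have the form of a laminin chain (Lamb1). The rule gave 86 of the 21755 protein-coding genes on chromosomes 1 to 19 and X. They were 27 integrin subunits, 44 collagen chains, 11 laminin chains and 4 genes that carry an integrin name but are not subunits (Itgb1bp1, Itgb1bp2, Itgb3bp and Itgbl1).

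CUT&RUN, in which an antibody-tethered nuclease releases the DNA around a bound protein, was performed with antibodies against cJun, H3K4me3 or, as a negative control, a non-specific IgG. The JNK inhibitor SP600125 (JNKi, 20 µM) or DMSO, its solvent, was given for 48 h. These gave 6 groups of 2 biological replicates (12 samples), with 550000 cells per reaction. One cell line was used, so results describe that line and not islets. Peaks of cJun and of H3K4me3 were read from 4 lists, 1 per antibody and treatment, in which the replicates of a group are merged. Presence of a peak in a list therefore had no replicate error, and the treatments could not be tested on it. The labels give the same nominal depth of 30000000 paired-end reads for every library, and the reads obtained in each were not analysed here. All intervals are 95% Wilson intervals over genes or peaks and cover counting error only.

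Integrins are receptors made of an α and a β subunit that join a cell to its surrounding matrix and signal through focal adhesions. Their ligands include laminins, trimers of an α, a β and a γ chain that form the basement membrane, and collagens, triple helices that form either fibrils or, in type IV, the network of the basement membrane. Islet β cells adhere to the basement membrane of the islet capillaries, which in mice is made largely by endothelial cells. H3K4me3 marks the start sites of genes that are transcribed or poised and does not measure expression. cJun is a subunit of AP-1, which binds the letters TGACTCA, and the JNK kinases phosphorylate it.

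The labelled cell type was checked first. Of 14 β cell markers, 13 had an H3K4me3 peak within 3 kb of a start site in each list, and the exception was Ins1. None of 6 fibroblast or stellate markers and none of 5 endothelial markers had a peak in either list. Peaks were present at 3 of 4 α cell markers in DMSO and 2 in JNKi, at 1 of 5 acinar, 2 of 4 ductal and 1 of 5 leukocyte markers in each list. Over all protein-coding genes the share with such a peak was 60.6% in DMSO and 60.0% in JNKi.

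For the H3K4me3 results, the reference sequence (GRCm38) of the 250 bases before the first annotated start site is printed. It runs from 5′ to 3′ on the strand of the gene. The printed members are 3 with the mark, those of widest peak by the mean of both lists, and 3 without it. Capitals mark CG dinucleotides, which are dense in the promoters of most widely used genes. Itgav and Itgb1 encode the αv and β1 integrin subunits and Col27a1 a fibrillar collagen, and all 3 had an H3K4me3 peak in both lists. Col4a1, the α1 chain of type IV collagen, had 31 CG and no H3K4me3 peak. Col1a2 and Col3a1, chains of collagens I and III that fibroblasts produce, had 12 and 0 CG and no peak either.
Itgav, chr2:83724147-83724396 (+ strand): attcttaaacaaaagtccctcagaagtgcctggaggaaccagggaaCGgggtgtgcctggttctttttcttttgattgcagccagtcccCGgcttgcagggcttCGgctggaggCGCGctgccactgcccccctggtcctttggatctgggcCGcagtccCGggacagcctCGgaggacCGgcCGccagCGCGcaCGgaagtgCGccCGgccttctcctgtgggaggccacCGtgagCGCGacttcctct
Itgb1, chr8:128685404-128685653 (+ strand): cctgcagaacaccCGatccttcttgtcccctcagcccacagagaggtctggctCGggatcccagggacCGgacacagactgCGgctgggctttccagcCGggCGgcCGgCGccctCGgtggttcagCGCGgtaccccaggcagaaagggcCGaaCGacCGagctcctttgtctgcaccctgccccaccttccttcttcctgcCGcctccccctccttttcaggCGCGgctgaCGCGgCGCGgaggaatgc
Col27a1, chr4:63215185-63215434 (+ strand): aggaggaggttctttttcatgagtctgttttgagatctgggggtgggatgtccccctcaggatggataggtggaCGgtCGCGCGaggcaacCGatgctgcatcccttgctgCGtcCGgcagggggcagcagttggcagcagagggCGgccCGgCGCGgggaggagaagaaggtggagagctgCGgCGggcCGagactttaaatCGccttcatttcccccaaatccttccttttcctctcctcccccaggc
Col4a1, chr8:11312827-11313076 (- strand): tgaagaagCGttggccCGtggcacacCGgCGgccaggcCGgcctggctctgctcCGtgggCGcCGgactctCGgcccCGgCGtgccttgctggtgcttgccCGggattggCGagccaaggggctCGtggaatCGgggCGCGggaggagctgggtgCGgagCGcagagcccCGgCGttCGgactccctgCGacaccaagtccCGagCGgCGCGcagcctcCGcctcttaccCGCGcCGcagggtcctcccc
Col1a2, chr6:4505243-4505492 (+ strand): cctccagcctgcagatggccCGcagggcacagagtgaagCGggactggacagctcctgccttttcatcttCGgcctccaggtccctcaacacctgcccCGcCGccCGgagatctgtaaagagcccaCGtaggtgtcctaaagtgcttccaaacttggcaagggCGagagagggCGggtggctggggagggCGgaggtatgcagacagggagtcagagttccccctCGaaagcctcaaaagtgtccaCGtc
Col3a1, chr1:45311288-45311537 (+ strand): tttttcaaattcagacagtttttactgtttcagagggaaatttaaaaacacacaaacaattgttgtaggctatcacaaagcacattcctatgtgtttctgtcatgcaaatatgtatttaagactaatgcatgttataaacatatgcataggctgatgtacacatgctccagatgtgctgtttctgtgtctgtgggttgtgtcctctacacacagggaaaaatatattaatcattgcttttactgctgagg

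For the cJun results, the 201 bases centred on the summit of a cJun peak (+ strand of GRCm38) are printed for 4 of the 5 DMSO peaks and for the 1 JNKi peak near members that held an AP-1 site there. Capitals mark TGACTCA or its reverse complement TGAGTCA. Those of Col18a1, Col15a1, Itgb4 and the leukocyte integrin cluster Itgad/Itgam/Itgax are DMSO peaks and that of Col8a2 is a JNKi peak. None of these windows overlapped an annotated exon. The peak named for Itgad/Itgam/Itgax overlapped another gene, Gm49368.
Col18a1, chr10:77206738-77206938 (+ strand): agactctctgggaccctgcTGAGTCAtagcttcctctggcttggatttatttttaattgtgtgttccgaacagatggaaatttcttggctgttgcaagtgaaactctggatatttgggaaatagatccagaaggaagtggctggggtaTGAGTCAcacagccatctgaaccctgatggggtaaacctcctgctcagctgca
Col15a1, chr4:47293966-47294166 (+ strand): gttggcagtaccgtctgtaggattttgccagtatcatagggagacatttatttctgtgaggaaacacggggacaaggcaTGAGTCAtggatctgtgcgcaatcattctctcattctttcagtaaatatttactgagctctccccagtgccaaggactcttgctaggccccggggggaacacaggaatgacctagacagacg
Itgb4, chr11:116024103-116024303 (+ strand): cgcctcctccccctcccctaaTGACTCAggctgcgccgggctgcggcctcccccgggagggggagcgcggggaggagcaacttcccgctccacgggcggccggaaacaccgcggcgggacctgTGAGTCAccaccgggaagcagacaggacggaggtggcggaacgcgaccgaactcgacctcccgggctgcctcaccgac
Itgad/Itgam/Itgax, chr7:128118778-128118978 (+ strand): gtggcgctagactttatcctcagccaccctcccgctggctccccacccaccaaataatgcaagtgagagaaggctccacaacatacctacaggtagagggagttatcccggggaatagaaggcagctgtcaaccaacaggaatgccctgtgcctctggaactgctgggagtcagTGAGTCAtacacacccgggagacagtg
Col8a2, chr4:126256602-126256802 (+ strand): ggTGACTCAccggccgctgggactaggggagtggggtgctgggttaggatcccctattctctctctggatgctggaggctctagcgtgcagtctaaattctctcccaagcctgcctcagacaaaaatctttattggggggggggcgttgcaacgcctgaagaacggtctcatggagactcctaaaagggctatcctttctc

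H3K4me3 lay at the promoters of a smaller share of collagens than of all protein-coding genes, and of laminin chains at a share near that of all genes. A gene was called marked where a peak lay within 3 kb of any annotated start site. In DMSO, 34 of 86 members (39.5%, interval 29.9 to 50.1) were marked, against 60.6% of all protein-coding genes. In JNKi, 33 members (38.4%) were marked, against 60.0% of all genes. The same 31 members (36%) were marked in both lists, against 59.7% of all genes, and 50 in neither. By family, 7 of 11 laminin chains (63.6%) were marked in each list, and 5 of 11 at an irreproducible discovery rate (IDR, a measure of how poorly a peak replicates that is low for reproducible peaks) of at most 0.05, against 54.0% of all genes at that limit. Of 27 integrin subunits, 14 (51.9%) were marked in DMSO and 12 (44.4%) in JNKi. Of 44 collagen chains, 11 (25%, interval 14.6 to 39.4) were marked in DMSO and 12 (27.3%) in JNKi.

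**Figure D1:**
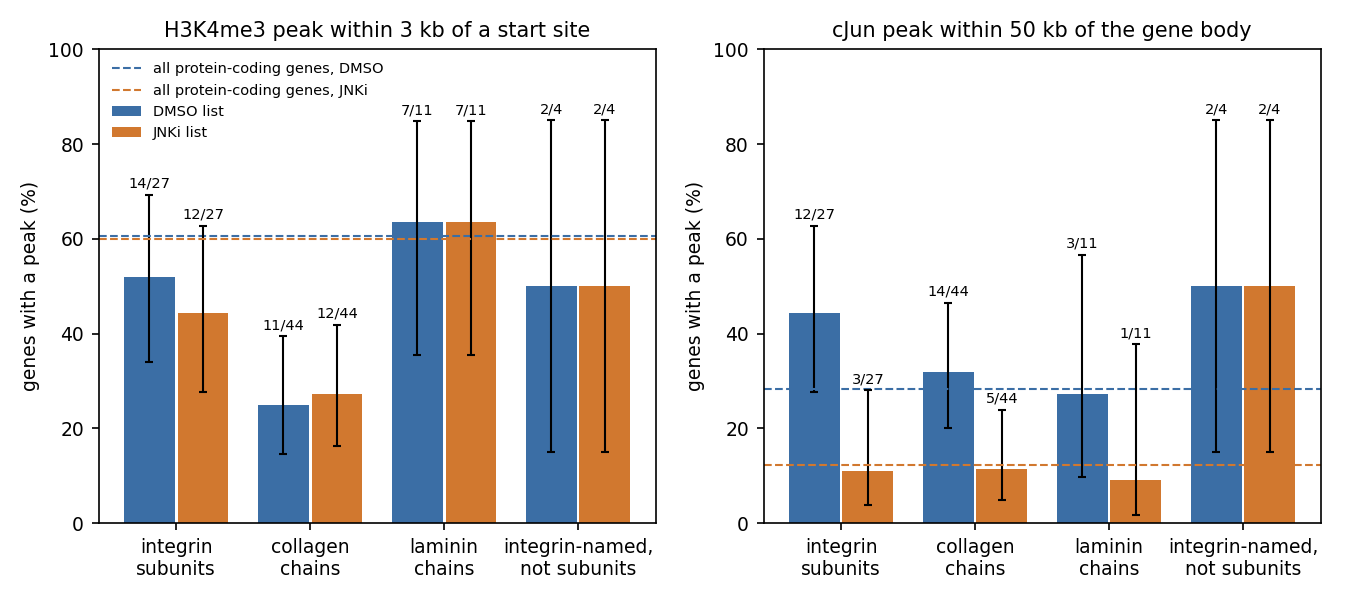
Share of genes with an H3K4me3 peak within 3 kb of a start site (left) or a cJun peak within 50 kb of the gene body (right), in percent, by family and list. Bars are shares, error bars 95% Wilson intervals, labels give genes with a peak over all genes, and dashed lines are the shares over all 21755 protein-coding genes (60.6% and 60.0% for H3K4me3, 28.4% and 12.2% for cJun). Collagen chains are at 25% and 27.3% for H3K4me3.

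Among integrin subunits, the receptors for laminin were all marked in DMSO. These α subunits are Itga3 (α3), Itga6 (α6) and Itga7 (α7), and of them Itga7 had no peak in JNKi. Their partner Itgb1 (β1), which pairs with most α subunits, was marked in both lists, and Itgb4 (β4), the partner of α6 in hemidesmosomes, in DMSO only. Of the collagen-binding α subunits, Itga1 and Itga2 were marked in both lists and Itga10 and Itga11 in neither. Of the 4 α subunits that bind the RGD motif of fibronectin, vitronectin or fibrinogen, Itgav, Itga8 and Itga2b were marked in both lists. Itga5, the α subunit of the main fibronectin receptor, had no peak in either. Itga4, which binds fibronectin and VCAM1, was marked in both and its relative Itga9 in neither. The 5 leukocyte α subunits (Itgad, Itgae, Itgal, Itgam and Itgax) had no peak in either list, and nor did Itgb2 and Itgb7, the β subunits of leukocyte integrins, or Itgb2l and Itgb6. Itgb3, Itgb5 and Itgb8, which can pair with αv, were marked in both lists, and Itgb6, which can do so too, was one of the unmarked.

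The laminin chains that were marked in both lists included Lama1, Lama4, Lama5, Lamb1, Lamb2 and Lamc1. Lama4 and Lama5 encode the α chains of vascular basement membranes. Lamb1 and Lamb2 encode the β chains and Lamc1 the γ chain of most laminins. Lama2, the α chain of muscle and nerve, Lama3 and Lamb3, chains of the main epidermal laminin, and Lamc3 had no peak in either list.

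Among collagens, 3 of 11 fibrillar chains were marked in both lists, namely Col1a1, Col11a1 and Col27a1. The Col1a1 peak had an IDR of 0.306 in DMSO and 0.282 in JNKi. Unmarked fibrillar chains were Col1a2, Col2a1, Col3a1, Col5a1, Col5a2, Col5a3, Col11a2 and Col24a1. None of 6 type IV chains was marked in DMSO, and in JNKi Col4a5 and Col4a6, which lie head to head, shared 1 short peak. Of 9 fibril-associated chains, Col14a1 and Col16a1 were marked in both lists and Col9a1, Col9a2, Col9a3, Col12a1, Col19a1, Col20a1 and Col22a1 in neither. Of 7 chains of the beaded filament group, Col6a6 was marked in both lists, while Col6a1, Col6a2, Col6a3, Col6a4, Col6a5 and Col28a1 were unmarked. Col23a1 and Col25a1 were marked among the transmembrane chains, and Col13a1 and Col17a1 were not. Col18a1, the source of endostatin and a chain of basement membranes, was marked in both lists and its relative Col15a1 in neither. Col8a1 was marked in both lists and Col8a2 in DMSO only. Col10a1 of growth cartilage, Col7a1 of anchoring fibrils and Col26a1 had no peak.

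The 4 integrin-named genes divided evenly. Itgb1bp1, which encodes the ICAP-1 protein that binds the β1 tail, and Itgb3bp, which encodes a centromere protein, were marked in both lists. Itgb1bp2, which encodes the muscle protein melusin, and Itgbl1 were marked in neither. The Itgb1bp1 peak also covered the start of Cpsf3 and the Itga1 peak that of Gm49395, so the mark could not be assigned to 1 gene there.

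A match to a peak within 3 kb does not place the peak on the start site. The lead peak, which is the peak of highest −log10 p where a promoter had several, lay 808 bp from the Col1a1 start in DMSO and 1029 bp in JNKi. The lead peak of Itga2b, a platelet subunit, lay 1817 bp away in DMSO and 1916 bp in JNKi. That of Lamb2 lay 141 and 222 bp away. The Lamb1 peak covered a start site in DMSO and lay 320 bp from one in JNKi.

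The peaks at members had lower median widths and ranks than those at all marked genes. The median width of the lead peak was 1264 bp over 34 members in DMSO and 1113 bp over 33 members in JNKi, against 2576 and 2643 bp over all marked protein-coding genes. Peaks were ranked within their list by −log10 p, and a percentile of 100 marks the highest. The median percentile was 33.3 in DMSO and 27.3 in JNKi for members, and 70.3 and 70.2 for all marked genes. At a percentile of 25 or lower lay 11 members in DMSO (32.4%) and 12 in JNKi (36.4%), against 8.07% and 7.87% of all marked genes. No member had a lead peak of 5 kb or wider, against 4.97% of marked genes in DMSO and 5.18% in JNKi. The top decile of the list held 0 members in DMSO and 1, Itgav, in JNKi, against 17.9% and 17.7% of marked genes. The medians depended on IDR. At an IDR of at most 0.05, the median width was 2099 bp over 23 members in DMSO and 2344 bp over 20 in JNKi, against 2591 and 2643 bp over all marked genes. The median percentile was then 36.8 and 42.6 for members, and 63.9 and 64.6 for all marked genes.

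**Figure D2:**
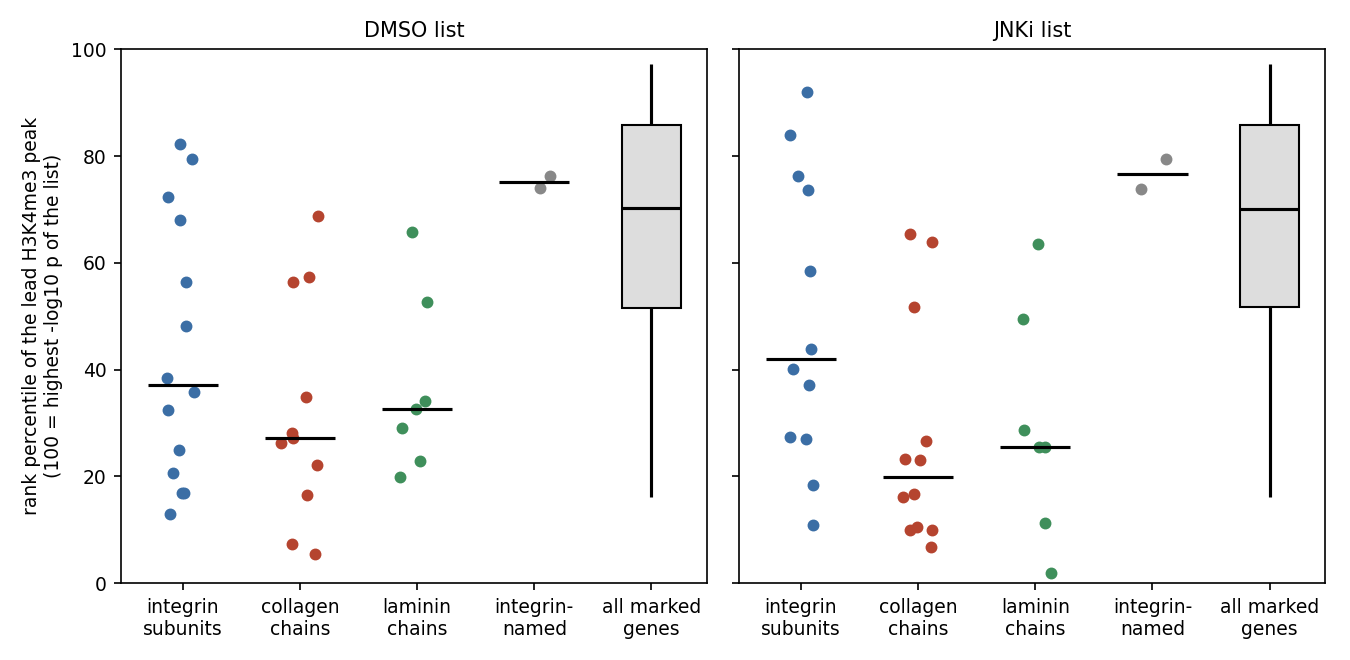
Rank percentile of the lead H3K4me3 peak at each marked member by family, in the DMSO list (left) and the JNKi list (right), where 100 is the highest −log10 p. Points are genes, horizontal lines are medians, and the box of all marked protein-coding genes spans the quartiles with whiskers to the 5th and 95th percentiles. Collagen chains have medians of 27.2 and 19.9, and all marked genes 70.3 and 70.2.

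In the full lists collagen chains had the lowest median percentile of the families, 27.2 in DMSO and 19.9 in JNKi. Laminin chains had 32.6 and 25.5, and integrin subunits 37.1 and 41.9. This order turned with IDR. With ranks taken among peaks of IDR at most 0.05, laminin chains were lowest with 11.8 and 7.85 (5 genes in each list). Collagens then had 12.8 (7 genes) in DMSO and 54.2 (3 genes) in JNKi, and integrin subunits 41.9 (9 genes) and 37.4 (10 genes). The 2 marked integrin-named genes, Itgb3bp and Itgb1bp1, lay at 76.3 and 74.0 in DMSO and at 79.5 and 73.9 in JNKi. The families overlapped widely, since integrin subunits ran from 13.0 to 82.3 in DMSO and collagens from 5.52 to 68.8.

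By merged width, the widest peak among members was at Itgav in both lists. It measured 3972 and 4068 bp in the replicate columns of DMSO and 4587 and 4292 bp in those of JNKi. Its −log10 p was 334 and 272 in DMSO and 496 and 428 in JNKi. It ranked 3974 in the DMSO list (percentile 79.5) and 1528 in the JNKi list (percentile 92.0). All JNKi widths were above the DMSO widths, but the difference did not pass the test over all peaks given below (adjusted p = 0.836, limma). The merged peak spanned chr2:83722993-83727339 in DMSO and covered the Itgav start printed above.

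Col27a1 had the second widest peak by the mean merged width of both lists, although in JNKi the Itgb1 peak (4049 bp merged) was wider than that of Col27a1 (3883 bp). Col27a1 measured 3807 and 4073 bp in DMSO and 3883 and 3527 bp in JNKi, at percentiles 68.8 and 65.4. Itgb1 measured 3372 and 3733 bp in DMSO and 4049 and 3538 bp in JNKi, at percentiles 72.4 and 73.7. Itga6 measured 3669 and 3490 bp in DMSO and 3333 and 3385 bp in JNKi, and it ranked higher than the other members in DMSO (percentile 82.3). The treatments overlapped in width for Col27a1 and Itgb1 and did not for Itga6. Col11a1, a minor fibrillar collagen of cartilage, measured 2910 and 3133 bp in DMSO and 3131 and 2978 bp in JNKi. Lamc1 measured 2956 and 2993 bp in DMSO and 2918 and 2928 bp in JNKi. All columns of Lamc1 lay between 2918 and 2993 bp. Itga3 measured 2829 and 2884 bp in DMSO and 3005 and 2667 bp in JNKi. Itgb3bp, Itgb1bp1 and Col8a1 made up the rest of the 10 widest by that mean, with merged widths of 3047, 2882 and 2245 bp in DMSO and 3483, 2966 and 2388 bp in JNKi. These 10 peaks all covered a start site. Itgb5, a partner of αv, measured 2146 and 2281 bp in DMSO and 2300 and 2186 bp in JNKi, and its merged peak was wider than that of Col8a1 in DMSO and narrower in JNKi.

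Other chains of the islet basement membrane had narrower peaks. Lama5 measured 1750 and 1799 bp in DMSO and 1709 and 1744 bp in JNKi, at percentiles 52.7 and 49.4. Lama4 measured 963 and 930 bp in DMSO and 987 and 869 bp in JNKi, at percentiles 32.6 and 28.7. Lamb2 measured 878 and 1043 bp in DMSO and 1043 and 996 bp in JNKi. Among these, Lama5 alone reached the middle of its DMSO list. Col18a1 measured 1212 and 1132 bp in DMSO and 1072 and 641 bp in JNKi. Its −log10 p was 32.3 and 31.0 in DMSO and 9.80 and 11.8 in JNKi. Col1a1 measured 862 and 1158 bp in DMSO and 847 and 795 bp in JNKi, at percentiles 16.6 and 10.5.

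The marks present in only 1 list were weak. They were at Col8a2, Itga7 and Itgb4 in DMSO (3 members, 3.49%, against 0.961% of all genes) and at Col4a5 and Col4a6 in JNKi (2 members, 2.33%, against 0.382%), so that 5 members (5.81%, against 1.34% of all genes) were marked in exactly 1 list. At Col8a2 the replicates gave a −log10 p of 5.26 and 7.13, and the peak lay at percentile 5.52. The Itga7 peak had 9.56 and 14.3 and the Itgb4 peak 9.56 and 14.3 (percentile 17 for each). The single peak of Col4a5 and Col4a6 was 205 bp wide, had a −log10 p of 6.78 and 7.11, and lay 157 bp from the Col4a5 start and 1491 bp from the Col4a6 start. All 5 genes thus had a percentile of 17 or lower. The IDR was 0.306 for each of the 3 DMSO peaks and 0.282 for the JNKi peak. Some marks present in both lists had the same IDR values in DMSO and JNKi, among them Col1a1, Col16a1 and Itga8. With 1 list per treatment, a change could not be told apart from a peak near the detection limit.

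Widths in the replicate columns allowed a test with replicates in both treatments. Over the 17494 H3K4me3 peaks paired 1 to 1 between the lists, limma with Benjamini-Hochberg adjustment called 0 peaks at 0.05 (0%), and 1175 (6.72%) had an unadjusted p under 0.05. With only 2 columns per treatment, a count of 0 does not show that widths were unchanged. Of the 33 pairs at members, 0 were called and 5 had an unadjusted p under 0.05. These included Lamb1, Itga8, Itgb3 and Col16a1.

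Lamb1 measured 922 and 838 bp in DMSO and 294 and 358 bp in JNKi, a log2 difference of −1.46 (SE 0.16, adjusted p = 0.320, limma). Itgb3, the β subunit of the vitronectin receptor, measured 1066 and 1086 bp in DMSO and 880 and 817 bp in JNKi (adjusted p = 0.409, limma). Both were narrower in both JNKi columns. Itga8, an RGD-binding subunit, measured 365 and 348 bp in DMSO and 607 and 529 bp in JNKi (adjusted p = 0.324, limma). Col16a1 measured 301 and 284 bp in DMSO and 478 and 572 bp in JNKi (adjusted p = 0.438, limma). These were wider in both JNKi columns, and none of the 5 passed the adjustment. The −log10 p of these peaks was low, as at Lamb1 with 11.3 and 13.3 in DMSO and 7.26 and 7.49 in JNKi. Over the 33 pairs, 5 were wider in both JNKi columns than in both DMSO columns, against 19.8% of all pairs, and 9 were narrower in both, against 14.5%.

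**Figure D3:**
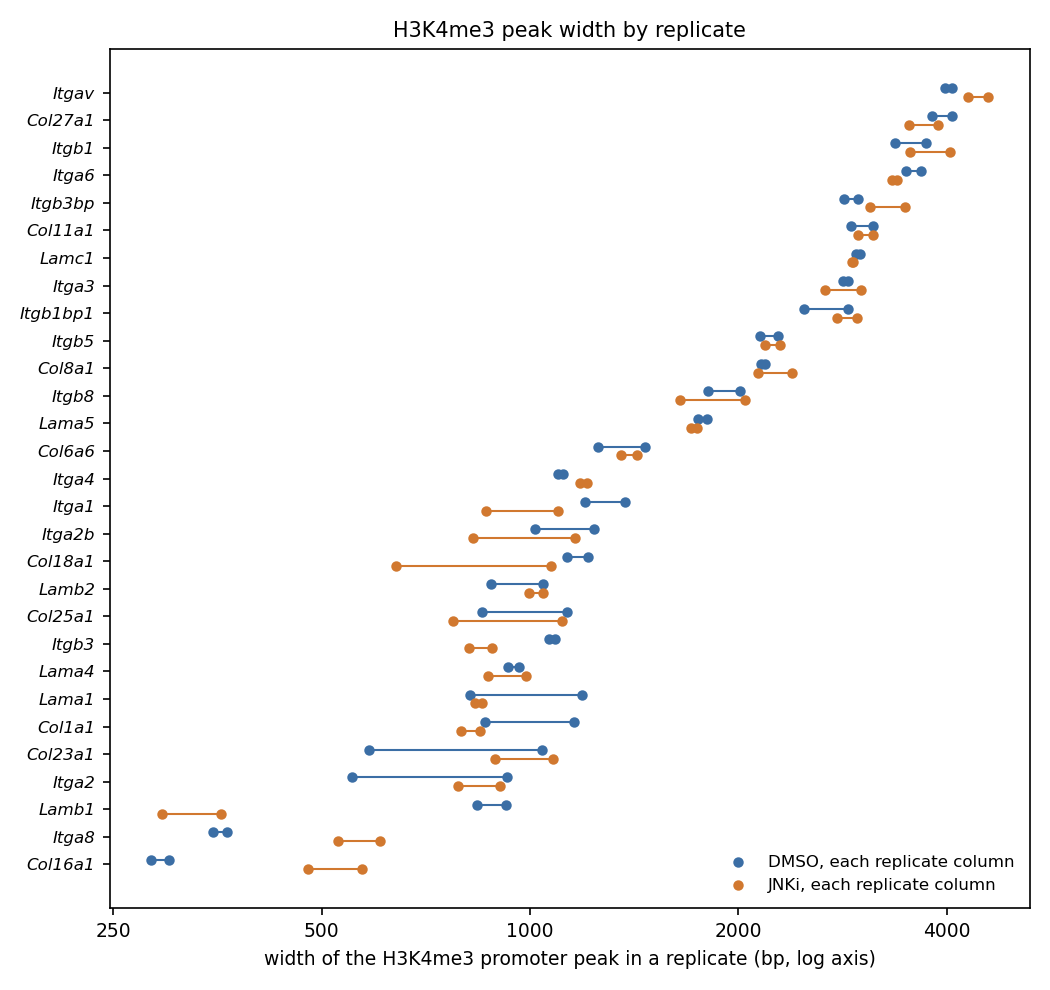
Width of the lead H3K4me3 peak in each replicate column, in bp on a log axis, for the members reported here whose lead peak paired 1 to 1 between the lists. Points are replicate columns and lines join the columns of a treatment. Itgav lies at 3972 and 4068 bp in DMSO and 4587 and 4292 bp in JNKi, and Lamb1 lies at 922 and 838 bp in DMSO and 294 and 358 bp in JNKi.

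CpG content was set beside the mark, because CG-dense promoters are marked in most cell types. The observed over expected CpG ratio was taken from 250 bases before to 50 after each start site, and the highest ratio over a gene's start sites was used. At a ratio of 0.6 or more, a threshold chosen after the peaks were examined, 34 members had a CpG-rich promoter. Of these, 19 (55.9%, interval 39.5 to 71.1) were marked in DMSO, against 91.1% of all CpG-rich genes, and 17 (50%) in JNKi, against 90.4%. Collagens accounted for 11 of the 15 unmarked CpG-rich members in DMSO. Of 15 CpG-rich collagens, 4 (26.7%, interval 10.9 to 52) were marked in DMSO and 3 (20.0%) in JNKi. Of CpG-rich integrin subunits, 9 of 12 were marked in DMSO and 8 in JNKi, and of CpG-rich laminin chains 4 of 5 in each list. Below 0.6, 15 of 52 members (28.8%) were marked in DMSO, against 26.6% of such genes.

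The unmarked CpG-rich collagens were Col2a1, Col4a1, Col4a2, Col5a1, Col5a3, Col6a2, Col9a3, Col12a1, Col13a1, Col15a1 and Col19a1. The marked ones in DMSO were Col8a2, Col23a1, Col25a1 and Col27a1. Col4a1 and Col4a2, which share a promoter between them and encode the most common type IV trimer, had ratios of 0.90 and 0.82. Col12a1 had 0.88, Col13a1 0.84 and Col5a1 0.81. These ratios were above or near 0.81, the median of all protein-coding genes marked in both lists. The unmarked CpG-rich integrin subunits were Itga9 and Itgad (0.76 and 0.77) and Itgb6 (0.65), and the unmarked laminin chain was Lamc3 (0.60). Col3a1 had a ratio of 0.

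**Figure D4:**
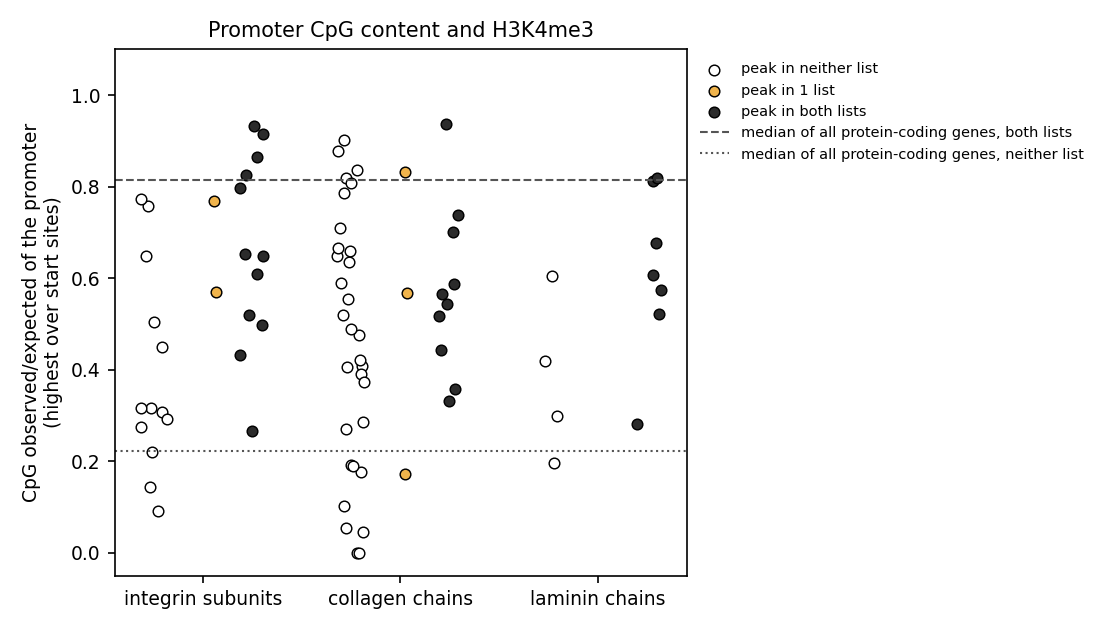
CpG observed over expected ratio of the promoter (highest over start sites) for integrin, collagen and laminin genes, split by H3K4me3 in neither list (white), 1 list (yellow) or both lists (black). Points are genes, and lines give the medians of all protein-coding genes marked in both lists (0.81) and in neither (0.22). White points near 0.8 to 0.9 among collagens include Col4a1, Col4a2, Col12a1 and Col13a1.

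Some H3K4me3 peaks lay inside a member's gene body, farther than 3 kb from any start site of a protein-coding gene. In DMSO 15 members (17.4%) had such a peak, against 10% of all genes, and in JNKi 17 (19.8%), against 10.1%. Per megabase of gene body, members had 1.99 in DMSO, against 2.86 over all genes, and 2.09 in JNKi, against 2.84. The higher share of these long genes was thus not seen per base when members were pooled. Among genes without a promoter peak, members had 1.36 per megabase in DMSO, against 1.82, and 2.02 in JNKi, against 1.73. Of the members without a promoter peak in either list, Col4a1, Col6a3, Col20a1, Col28a1, Itga10, Itgad and Itgb7 had a body peak in both lists, and Col19a1 and Itga11 in JNKi only. Of the members with a promoter peak in at least 1 list, Col27a1, Col8a2, Itga2b, Itga4, Itgav, Itgb5 and Lamb1 had one in both lists, Col8a1 in DMSO only and Itga6 in JNKi only.

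Other genes of the adhesion pathway were counted in the same way, with 60.6% of all genes marked in DMSO and 60.0% in JNKi. Of 31 focal adhesion genes, which link integrins to actin, 26 were marked in DMSO and 25 in JNKi. The exceptions in both lists were Tln2, Fermt1, Fermt3, Parvg and Filip1l, and Tns1 was unmarked in JNKi. Of 23 genes for collagen folding and crosslinking, 15 were marked in each list, and the collagen chaperone Serpinh1 and the crosslinking enzymes Lox, Loxl1, Loxl2 and Loxl4 were not. Of 19 other matrix glycoproteins and receptors, 13 were marked in DMSO and 12 in JNKi. The basement membrane linkers Nid1 and Nid2 and the fibronectin gene Fn1 were unmarked. Of 18 matrix metalloproteinases and their inhibitors, 5 were marked in each list.

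The next comparison asked whether cJun lay near these genes and whether that differed under JNKi. In DMSO, 31 of 86 members (36%, interval 26.7 to 46.6) had a cJun peak within 50 kb of the gene body, against 28.4% of all genes. In JNKi, 11 members (12.8%) had one, against 12.2% of all genes. A peak was present in both lists for 9 members (10.5%, against 10.2% of all genes), in DMSO only for 22 (25.6%, against 18.2%) and in JNKi only for 2 (2.33%, against 2.02%), namely Itgb2 and Itgb3bp. By family, integrin subunits went from 12 in DMSO to 3 in JNKi, collagens from 14 to 5, laminins from 3 to 1, and the integrin-named genes had 2 in each. The whole list was shorter in JNKi (1632 peaks) than in DMSO (4960 peaks).

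The genes are long, and long genes have wider windows. Their median length was 81.7 kb, against 17.4 kb for all protein-coding genes. Per megabase of window, members had 2.03 cJun peaks in DMSO, against 2.53 over all genes, and 0.70 in JNKi, against 0.84. Within 50 kb of a start site, 20 members (23.3%) had a cJun peak in DMSO, against 23.7% of all genes, and 6 (6.98%) in JNKi, against 9.97%. The higher share of members with a peak was thus not seen per base or around start sites when members were pooled. By family, integrin subunits had 2.70 peaks per megabase in DMSO, near the 2.53 over all genes. That value came from 12 peaks, of which 0 had an IDR of at most 0.05. Collagens and laminins had 1.97 and 1.12 per megabase in DMSO. In JNKi integrin subunits, collagens and laminins had 0.67, 0.66 and 0.37.

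The 31 members in DMSO shared 35 cJun peaks, because 1 peak lay in the windows of Itgad, Itgam and Itgax and a pair of peaks in those of neighbouring Col6 genes. Only 15 of these 35 peaks had a member as their nearest gene, at 11 members (12.8%, against 13.6% of all genes), and 14 lay within 3 kb of the start of another gene. In JNKi, 4 of 12 peaks had a member as nearest gene, at 4 members (4.65%, against 5.41% of all genes), and 8 lay within 3 kb of another gene's start. The DMSO peaks nearest to a member were at Col15a1, Col18a1, Col19a1, Col27a1, Col4a1, Col6a5, Col6a6, Itga6, Itgb1, Lama5 and Lamb1.

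A JNKi peak overlapped 10 of the 35 DMSO peaks (28.6%, interval 16.3 to 45.1), against 23.6% of the whole list. An H3K4me3 peak overlapped 27 of the 35 (77.1%, interval 61.0 to 87.9), against 60.1% of cJun peaks near any protein-coding gene. These were 8 of the 15 peaks with a member as nearest gene and 19 of the 20 nearest to another gene. An AP-1 site lay within 100 bp of the summit in 5 of the 35 (14.3%, interval 6.26 to 29.4), against 10% of the list. Of the 12 JNKi peaks, 10 were overlapped by a DMSO peak, against 72.0% of the whole JNKi list. At H3K4me3 lay 11, against 61.3% of JNKi peaks near any protein-coding gene. Of those 11, 3 had a member as nearest gene and 8 another gene. An AP-1 site lay within 100 bp of the summit in 1 of the 12, against 12.1% of the list. The median percentile of the cJun peaks near members was 41.0 in DMSO and 46.3 in JNKi. An IDR of at most 0.05 was reached by 1 of 35 DMSO peaks (2.86%), against 9.10% of cJun peaks near any protein-coding gene, and by 4 of 12 JNKi peaks (33.3%), against 15.9%.

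A cJun peak within 3 kb of a start site was found at 4 members in DMSO (4.65%, against 7.90% of all genes) and at 0 in JNKi (against 2.91%). These were Col27a1, Col6a6, Itga6 and Itgb1. At Itgb1 the replicates gave a −log10 p of 15.8 and 6.38 (rank 2134 of 4960), and the peak covered the start site. The Itga6 peak had 5.48 and 9.32 (rank 2924) and covered a start site too. Col27a1 had 1 peak at 1371 bp and 1 at 851 bp from its start (ranks 3195 and 3787). The Col6a6 peak, 390 bp from a start site, had a −log10 p of 4.27 and 3.11 and was among the weakest of the list (rank 4865). All 5 peaks lay at an H3K4me3 peak, none was overlapped by a JNKi peak, and their summits had no AP-1 site within 100 bp. Their IDR was 0.465 at Itgb1, 0.498 at Itga6 and 0.729 at the Col27a1 and Col6a6 peaks.

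**Figure D5:**
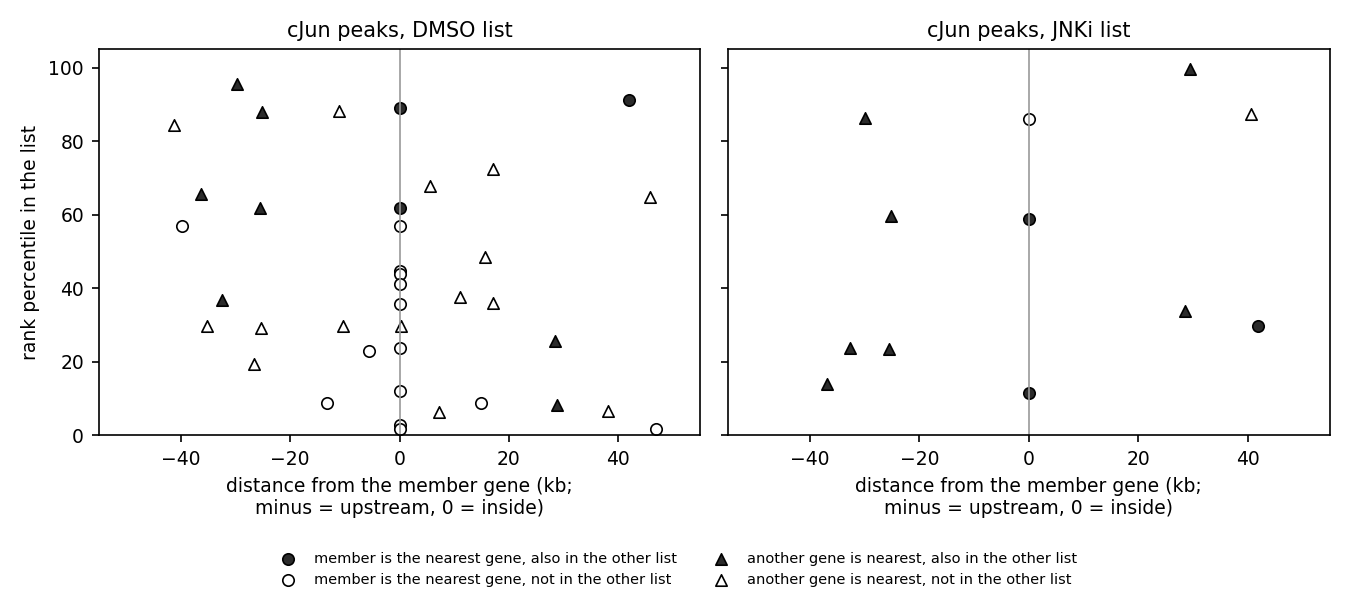
Position and rank of cJun peaks within 50 kb of members, in the DMSO list (left, 39 pairs of a peak and a gene) and the JNKi list (right, 12 pairs). The horizontal axis is the distance from the gene in kb (0 inside the gene), the vertical axis the rank percentile by −log10 p, circles mark peaks whose nearest gene is a member, and filled symbols are peaks overlapped in the other list. In DMSO 15 of 35 peaks and in JNKi 4 of 12 have a member as nearest gene.

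The strongest DMSO peaks that had a member as their nearest gene were at Col4a1 and Col27a1. Their IDR was 0.0625 and 0.0523, above the limit of 0.05. The Col4a1 peak (chr8:11155847-11156472) lay 41.9 kb beyond the end of the gene and ranked 443 in DMSO with a −log10 p of 12.3 and 13.8. It held 2 AP-1 sites. A JNKi peak overlapped it, at rank 1146 of 1632 with a −log10 p of 5.76 and 4.90. Its percentile was 91.1 in DMSO and 29.7 in JNKi, while the Col4a1 promoter had no H3K4me3 peak in either list. A second DMSO peak lay in a Col4a1 intron at rank 2786. The Col27a1 peak lay in an intron 5.50 kb from the start, ranked 544 in DMSO (−log10 p of 16.5 and 11.4) and was overlapped by a JNKi peak of rank 672.

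Other peaks nearest to a member ranked lower. Lamb1 had an intronic peak in both lists, at rank 1898 in DMSO (−log10 p of 12.4 and 6.85) and 1442 in JNKi (3.86 and 10.9). The Col18a1 peak, 39835 bp upstream, ranked 2141 in DMSO with 6.38 and 7.1, and the intronic Col15a1 peak ranked 2742 with 8.43 and 5.62. Both held AP-1 sites, lay outside H3K4me3 and were absent from the JNKi list. The Lama5 peak, in an intron, ranked 4825 with 4.95 and 3.18.

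Most other high ranks belonged to the promoters of neighbours. The highest in DMSO near a member was 29.8 kb upstream of Col8a2, at the start of Map7d1 (rank 224, −log10 p of 19.9 and 15.9), and it was overlapped in JNKi (rank 223, 11.4 and 13.7). The next of these lay near Col11a2 at the start of H2-Ke6 (rank 585) and near Col23a1 at the start of Clk4 (rank 606 in DMSO and 660 in JNKi). The Col14a1 peak of rank 777 had Deptor as its nearest gene. Those of Lamb2 (rank 1359), Itgav (rank 1593), Col9a2 (rank 1706) and Itga4 (rank 1744) had Qars, Fam171b, Smap2 and Cerkl as their nearest genes. The Itgb4 peak, whose window printed above held 2 AP-1 sites, lay at the start of the histone gene H3f3b (rank 2555). The peak near Itgad, Itgam and Itgax had Gm49368 as its nearest gene, at rank 3479 of 4960 with an IDR of 0.505.

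In JNKi the highest rank was 9, at a peak 29.5 kb beyond Itgae, the α subunit of a leukocyte integrin, at the starts of Emc6 and Tax1bp3. Its −log10 p was 50.8 and 74.2 in JNKi. In DMSO the overlapping peak had 66.8 in one replicate and 3.57 in the other, and since the lower value sets the rank it came 4551. That difference in rank between treatments thus rested on 1 DMSO replicate. The JNKi peaks near Itgb2, at the start of Sumo3 (rank 208), and in the Itgb3bp body at the start of Pgm1 (rank 229) had no overlapping DMSO peak. Itga9, Itgbl1 and Col9a2 had peaks in both lists, with ranks of 1080, 1247 and 1403 in JNKi, at or in Ctdspl, Nalcn and Smap2.

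The letters TGACTCA or TGAGTCA, on either strand, were present from 250 bases before to 50 after a start site at 7 of 86 members (8.14%), against 6.38% of all protein-coding genes. The other genes of the pathway were counted for cJun as well. A cJun peak within 50 kb was present in DMSO and JNKi at 17 and 8 of 31 focal adhesion genes, 8 and 4 of 19 matrix glycoproteins and receptors, 6 and 4 of 23 folding and crosslinking genes, and 3 and 2 of 18 metalloproteinases and inhibitors. Over all genes the shares were 28.4% and 12.2%.

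The counts for members depended on IDR. At an IDR of at most 0.05, 23 members (26.7%) had an H3K4me3 promoter peak in DMSO and 20 (23.3%) in JNKi, against 54.0% of all genes in each list. By family these were 9 and 10 integrin subunits, 7 and 3 collagens and 5 laminin chains in each list, with both marked integrin-named genes. The JNKi collagens that remained were Col11a1, Col27a1 and Col8a1. For cJun within 50 kb, 1 member passed this limit in DMSO, against 4.22% of all genes, and 4 in JNKi, against 2.74%. The DMSO member was Col8a2, through the peak at the start of Map7d1. Those in JNKi were Itgae, Itgb2, Col8a2 and Itgb3bp, through peaks at the starts of Emc6 and Tax1bp3, Sumo3, Map7d1 and Pgm1.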

How the data were processed

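Members, gene lists and thresholds were chosen with earlier results of these data known. Libraries were read as pairs of 150 bp. The study's methods and the submitters' processing notes name Trimmomatic, FastQC, Bowtie2 2.4.2, SAMtools 1.16, MACS2 2.2.7.1, deepTools 3.5.1, bedtools 2.30 and the builds GRCm38 and mm10. The authors called peaks per replicate against IgG and combined replicates by IDR. The deposited −log10 p of a merged peak equals the lower of its replicates' values, and peaks go down to a −log10 p just above 3. The study's methods report the default settings of the caller. That floor does not match calling at the caller's default q-value, and the setting used is not known here. The lists include peaks of IDR above 0.05, so they were not limited to that IDR. Each list is attached to 1 sample of its group, and its layout of columns without a header is that of an IDR output, with the start, end and −log10 p of the peak in each of 2 replicates. That these are the group's replicates is read from the layout and the study's methods. The replicate columns carry no number and are called first and second. The deposited IDR score was read as −log10 of the global IDR. Signal and q-value columns hold a placeholder, and −log10 p replaced the planned signal value as the rank. IgG libraries and reads were not analysed here.

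Genes and start sites of the transcripts came from the GENCODE vM21 basic annotation, and sequence from GRCm38. Overlap meant at least 1 bp. Promoter windows were 3 kb and cJun windows 50 kb. Where a gene had several promoter peaks, that of highest −log10 p led. H3K4me3 widths of the replicate columns (log2, each column centred on its median) were compared with limma 3.58.1 in R 4.3.3, over all paired peaks. Nothing says how far the biological replicates were separate cultures, so the spread between them may be partly technical. Shares of members were set beside the same shares over all genes, with no test. Steps were tested on simulated data. Scripts ran in Python 3.11.15 with pandas 2.3.3, numpy 2.4.6, matplotlib 3.10.9 and SciPy 1.17.1. Genes named with values were those marked in 1 list, the 10 widest lead peaks, those with a cJun peak within 3 kb, the 10 highest cJun ranks per list, chains of the islet basement membrane with their receptors, and stromal collagens. CpG-rich unmarked genes, peaks with AP-1 sites and genes with an unadjusted p under 0.05 were named after their values were seen. A laminin chain and some sequences are not reported here. Alternatives covered IDR, windows, ranking, replicate columns, motif windows, centring and CpG thresholds.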

Additional observations from a re-analysis of the deposited data

How the results depend on the processing

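Of 76 values computed under alternatives for 16 results, 40 moved and 36 did not. Counts of members were taken to move beyond 1.5 times the main count, medians beyond the SD of the replicate columns, and shares of peaks or promoters outside the interval of the main share. By this criterion 23 members with an H3K4me3 promoter peak in DMSO at an IDR of 0.05, and 43 members with a cJun peak within 100 kb in DMSO, did not move, although as shares of 86 members (26.7% and 50%) both lie outside the intervals of the main shares. Members with an H3K4me3 promoter peak numbered 21 in DMSO at an IDR of at most 0.01, and 20 and 19 in JNKi at 0.05 and 0.01. Members with a cJun peak within 50 kb fell from 31 in DMSO to 1 and 0 at these IDR limits, 11 within 10 kb, 20 around start sites and 11 when only the nearest gene counted. In JNKi they went from 11 to 4 and 1 at these limits, 3 within 10 kb, 18 within 100 kb, 6 around start sites and 4 by nearest gene. At IDR limits of 0.05 and 0.01 the median lead width was 2099 and 2245 bp for DMSO, 2344 and 2388 bp for JNKi, and single replicate columns gave 1193.5 to 1197.5 bp in DMSO and 996 to 1113 bp in JNKi. At these limits the median percentile was 36.8 and 40.5 for DMSO, 42.6 and 45.9 for JNKi. It was 35.3 and 30.0 by width, and 30.8 to 31.5 in DMSO and 26.3 to 26.9 in JNKi by single columns. The share of members' cJun peaks overlapped in the other list was 100% in DMSO (1 peak) at an IDR of 0.05, and 25% and 0% in JNKi (4 peaks and 1 peak) at 0.05 and 0.01. The share with an AP-1 site was 0% in DMSO at an IDR of 0.05, 37.1% and 41.7% in DMSO and JNKi over whole peaks, and 0% in JNKi at an IDR of 0.01 or within 50 bp of the summit. The share at H3K4me3 was 100% in DMSO at an IDR of 0.05 and 100% in JNKi at 0.01. At an IDR of 0.01 no DMSO cJun peak was left near members, so these shares had no value there. The limma count of changed widths at members was 0 without centring and for pairs of IDR at most 0.05 in both lists. In these fits 4 and 1 pairs at members had an unadjusted p under 0.05. Fits without 1 replicate column had the spread from the other treatment alone, so their counts are not given. They are included in the values that did not move. The cause of the moves listed above was not tested, except that stricter IDR limits leave fewer peaks and narrower windows fewer pairs.

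CpG thresholds, the first start site alone and IDR for CpG-rich collagens, and the requirement that a peak cover a start site, were chosen after seeing the data. No paired analysis was possible because the columns that hold a list's replicates are unnumbered and could not be matched across treatments. Reads per library were not analysed here, and absence from a list does not show absence of the mark.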
